A study of Homo sapiens with 6 samples.

Results

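The SLC25 family of mitochondrial carrier genes was followed by RNA sequencing in MDA-MB-231 cells. They are a widely used established line from a human breast cancer of the triple-negative kind. The members were all protein-coding genes whose symbol is SLC25A with a number. The rule gave 48 genes in 49 rows, out of 19957 protein-coding rows and 58656 rows in all. SLC25A6, which lies in a pseudoautosomal region, had a row on X and a row on Y. One group of 3 libraries came from cells treated with mitocurcumin, a derivative of the plant compound curcumin that is directed to mitochondria, at 5 µM for 9 hours. The other 3 libraries came from cells given the DMSO vehicle for the same 9 hours. All the cells were of this single line, and the labels name no genetic change in either group. The labels call the replicates biological but name no separate cultures, and a p-value here reflects only how far these samples spread, which may be technical.

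Carriers of this family are small proteins built from repeated modules that each cross the inner mitochondrial membrane, and most exchange a metabolite of the matrix for one of the intermembrane space. They move ADP and ATP, phosphate, carboxylic acids, amino acids, cofactors, nucleotides and iron, so that the matrix enzymes depend on them for substrates. The carrier proteins are encoded in the nucleus and imported through the TIM22 complex. A few members sit elsewhere, such as SLC25A17 in the peroxisome and SLC25A46 in the outer mitochondrial membrane. The family members UCP1 to UCP3, MTCH1 and MTCH2 carry other symbols and were described separately.

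Total counts ran from 23146822 to 29104681 per library. The 5 genes expected to be high in this line, VIM, CD44, AXL, CAV1 and MSN, summed to 6964 to 7024 CPM (counts brought by edgeR to a common library total, with TMM scaling) in controls and 7033 to 7269 after mitocurcumin. Of 5 genes expected near 0, the receptors ESR1 and PGR and the factor FOXA1 were under 1 CPM, whereas GATA3 fell from 13.7 CPM in controls to 9.25 CPM after mitocurcumin. CDH1, the fifth, was at 1.69 and 2.43 CPM and was not called. Of 9 markers of other cell types, 5 were under 1 CPM in both groups, among them CD3E and INS. The sum of the 9 was 23.7 to 28.6 CPM in controls and 17.01 to 20.2 CPM after mitocurcumin, and PECAM1 alone fell from 12.9 to 6.42 CPM. The part of these markers in the results on carriers was not tested.

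The line expressed most of the family. Of the 48 genes, 43 passed the filter on low counts and were tested. Levels were compared between genes as CPM per kb, with the merged exon length of each gene in GENCODE release 29, which can exceed the length of the transcript used and then lowers the value. On that scale SLC25A5, the main ADP/ATP carrier of dividing cells, led in controls with 184 ± 11.4 CPM per kb (SD, n = 3). SLC25A3, which imports the phosphate used for ATP synthesis, followed at 48.8 ± 2.33. The order of SLC25A5 and SLC25A3 depends on the length scaling, since their merged exons came to 1500 and 8896 bases. In CPM without that scaling SLC25A3 was the higher, with control means of 434 against 276 for SLC25A5. SLC25A24, an ATP-Mg/phosphate carrier, had 39.8 ± 1.53 and SLC25A6, a further ADP/ATP carrier, 37.9 ± 4.28, and the control libraries of these neighbours overlapped. The folate and FAD carrier SLC25A32 came next at 24.5 ± 0.274, apart from SLC25A37, the iron carrier mitoferrin-1, at 21.9 ± 1.46. Below them SLC25A13, SLC25A46 and SLC25A43 lay between 16.1 and 16.5 CPM per kb with overlapping libraries. The low end was held by SLC25A34, SLC25A52, SLC25A21, SLC25A45 and SLC25A18, from 0.493 down to 0.109 CPM per kb.

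**Figure D1:**
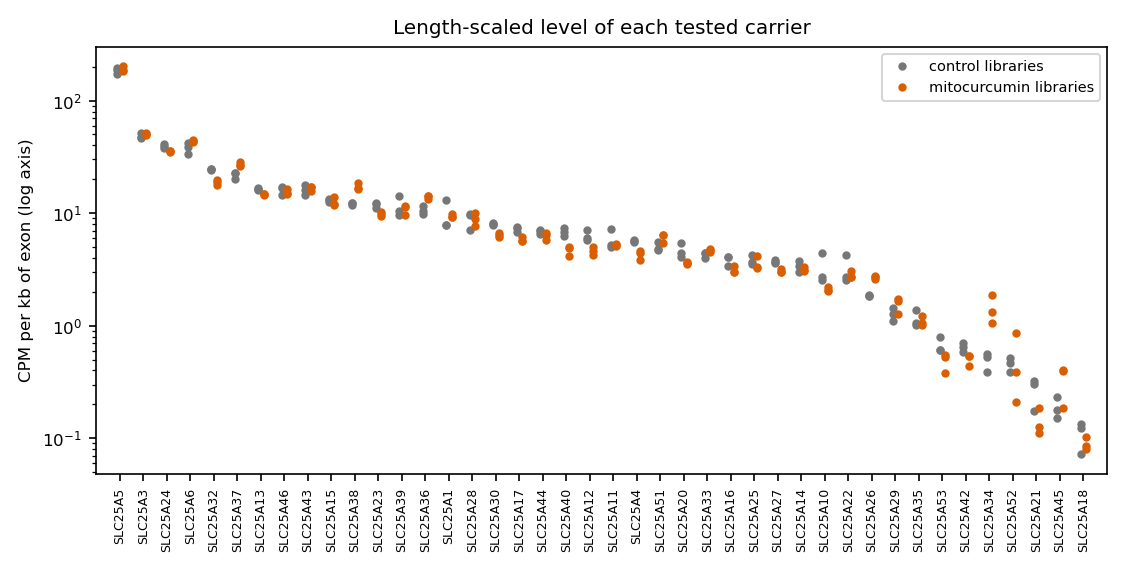
Level of 42 of the 43 tested carriers as CPM per kb of merged exon, on a log axis, with 1 point per library. On this length-scaled axis SLC25A5 stands at the top near 184 in controls, and the largest shift between groups among the low genes is that of SLC25A34.

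The genes not tested were SLC25A2, SLC25A31, SLC25A41, SLC25A47 and SLC25A48. SLC25A31, an ADP/ATP carrier known from the testis, held 4 counts in control replicate 2, 2 in mitocurcumin replicate 3 and 0 in the others. SLC25A41, an ATP-Mg/phosphate carrier, held 0, 3 and 0 counts in controls and 6.18, 2 and 5.76 after mitocurcumin. SLC25A2, an ornithine carrier, held a single count in mitocurcumin replicate 2, and the orphan SLC25A47 held 2 counts in mitocurcumin replicate 1. SLC25A48, linked to choline import, held 0 counts in each library, which allows up to 3 counts or 0.103 to 0.13 CPM per library, a limit of counting error only. The Y row of SLC25A6 held 2.15 to 6.50 counts per library and was not tested either, so SLC25A6 below means the X row.

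Mitocurcumin changed individual carriers in both directions. SLC25A34, an orphan carrier, rose most, and the carriers SLC25A26, SLC25A38, SLC25A36, SLC25A37 and SLC25A6 rose by smaller amounts. The dicarboxylate carrier SLC25A10, the glutathione carrier SLC25A40, the aspartate/glutamate carrier SLC25A12 and the ADP/ATP carrier SLC25A4 fell, together with SLC25A32, SLC25A30, SLC25A17, SLC25A16, SLC25A23 and SLC25A24. At an edgeR adjusted p under 0.05, 6 members were higher and 10 lower of 43, together 37.2%. Over all 16481 rows tested, 32.5% were called, 14.7% higher and 17.8% lower, and of protein-coding rows 35.8% were called, so the share among carriers lay near that of the table as a whole. The median change of the 43 was -0.11 on the log2 scale, against -0.01 for all rows. The count of lower members dropped to 5 without mitocurcumin replicate 3 and to 6 without mitocurcumin replicate 1. Rows of the whole table called lower dropped as well, from 2938 to 2250 and 2225.

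Changes in the family were mostly small. Only 2 of the called members, SLC25A34 and SLC25A10, changed at least 1.5-fold, or 4.65% of those tested against 9.74% of all rows. The 2 groups of libraries did not overlap in 21 members, or 48.8%, against 44.9% of all rows. Of the 27 members not called, 6 had groups that did not overlap: SLC25A13, SLC25A20, SLC25A27, SLC25A33, SLC25A42 and SLC25A53. Summed over the family, the level was 2360, 2249 and 2276 CPM in controls and 2296, 2304 and 2295 CPM after mitocurcumin, so the treated values lay within the control range. The share of SLC25A37 in the summed counts of the family was 7.33% to 8.11% in controls and 9.27% to 10.05% after mitocurcumin, and that of SLC25A36 4.54% to 5.25% and 5.98% to 6.41%. SLC25A3, SLC25A5 and SLC25A24 together took 41.9% to 43.3% in controls and 41.6% to 42.9% after mitocurcumin.

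**Figure D2:**
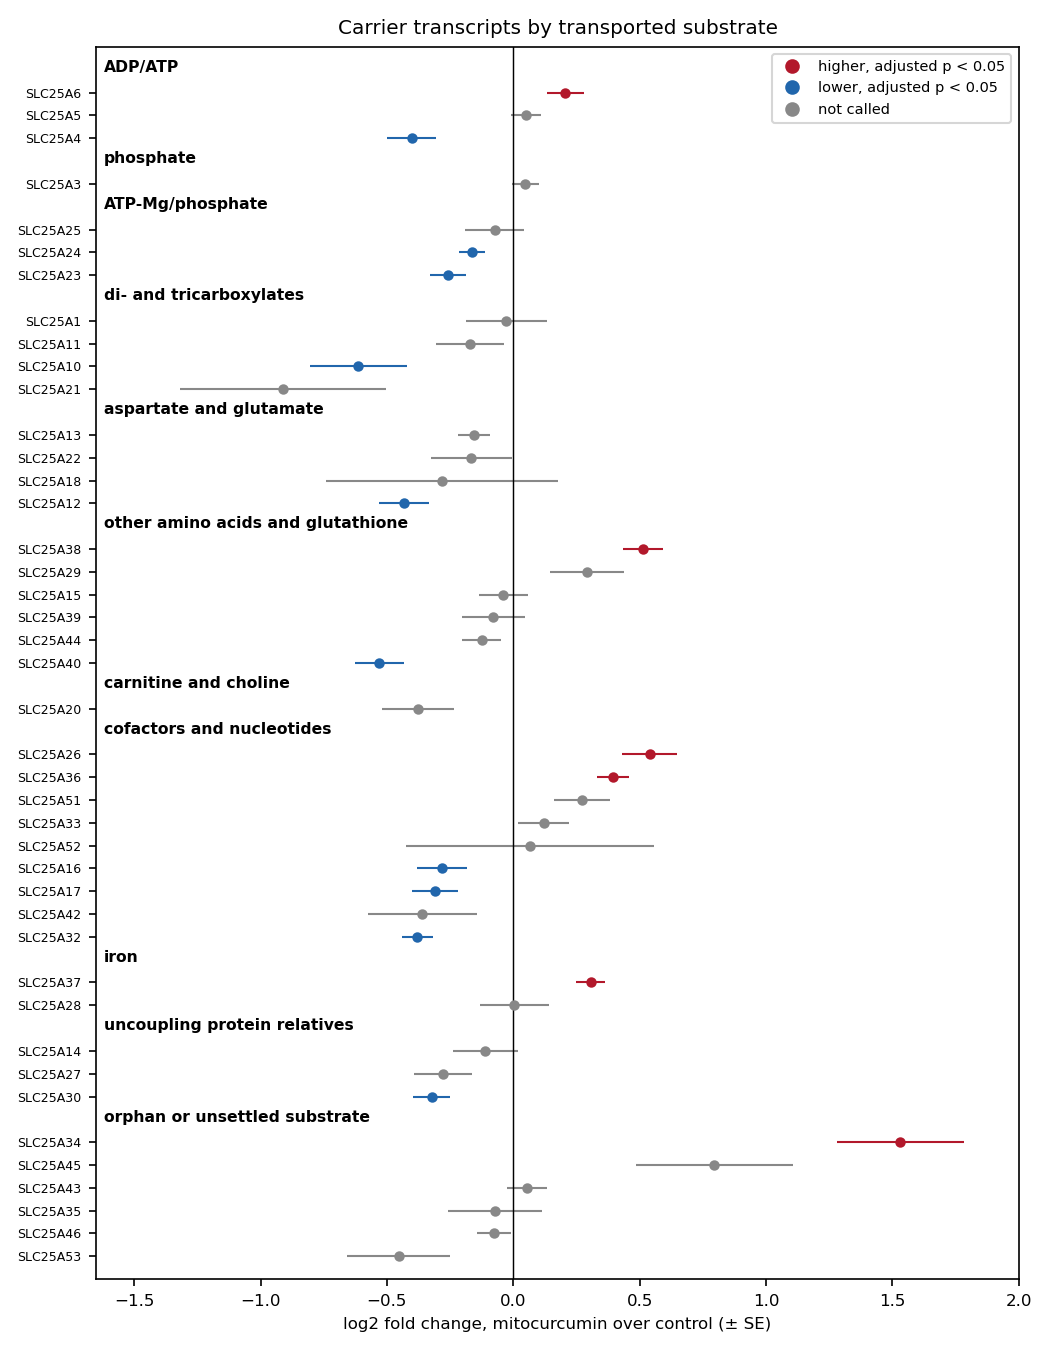
Log2 fold change of mitocurcumin over control for 42 of the 43 tested carriers, with the SE from edgeR as bars, grouped by the substrate carried. Red points are the 6 called higher, blue points the 10 called lower and grey points 26 not called. The ADP/ATP, other amino acid, cofactor and orphan groups hold members on both sides of 0. The phosphate and iron carriers lie at or above 0, and every point of the remaining groups lies below 0.

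Promoter sequences from RefSeq (GRCh38.p14) were matched by gene number for 40 of the 48 genes, in 50 windows of 250 bases before and 50 bases after a start site. Those with no entry included SLC25A2, SLC25A16, SLC25A30, SLC25A32, SLC25A35, SLC25A37 and SLC25A41. The 250 bases before the start are shown for SLC25A34, the member with the largest rise, for SLC25A38 and SLC25A36, which rose and hold an E-box, and for SLC25A40, whose fall was among the largest and held up in the alternatives tried. They are written 5′ to 3′ on the strand of the gene, with the motif matches in capitals.
SLC25A34 (chr1:15736008-15736257, plus strand): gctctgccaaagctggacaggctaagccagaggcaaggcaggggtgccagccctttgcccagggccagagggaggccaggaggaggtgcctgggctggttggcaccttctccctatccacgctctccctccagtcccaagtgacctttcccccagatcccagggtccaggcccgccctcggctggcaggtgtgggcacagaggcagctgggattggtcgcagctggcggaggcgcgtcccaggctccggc
SLC25A38 (chr3:39383120-39383369, plus strand): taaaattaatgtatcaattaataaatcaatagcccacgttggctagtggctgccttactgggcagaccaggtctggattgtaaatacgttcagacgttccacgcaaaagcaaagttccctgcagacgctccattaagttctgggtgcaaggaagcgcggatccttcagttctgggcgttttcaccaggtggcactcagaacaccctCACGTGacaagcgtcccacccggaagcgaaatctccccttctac
SLC25A36 (chr3:140941586-140941835, plus strand): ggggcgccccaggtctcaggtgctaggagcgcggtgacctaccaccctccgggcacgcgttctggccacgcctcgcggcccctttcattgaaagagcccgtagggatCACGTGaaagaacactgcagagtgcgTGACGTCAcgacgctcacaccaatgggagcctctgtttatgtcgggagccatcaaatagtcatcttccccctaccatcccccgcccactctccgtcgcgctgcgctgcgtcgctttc
SLC25A40 (chr7:87876361-87876610, minus strand): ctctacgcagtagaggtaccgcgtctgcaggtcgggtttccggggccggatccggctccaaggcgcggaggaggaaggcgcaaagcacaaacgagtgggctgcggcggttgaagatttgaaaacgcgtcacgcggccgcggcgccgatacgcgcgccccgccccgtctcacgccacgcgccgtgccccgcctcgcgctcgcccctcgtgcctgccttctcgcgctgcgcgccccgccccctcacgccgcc
In SLC25A38 the capitals mark CACGTG, the E-box bound by factors such as MYC and TFEB, which begins at position -44 from the start site. In SLC25A36 they mark CACGTG from position -143 and TGACGTCA, the cAMP response element, from position -117. The windows of SLC25A34 and SLC25A40 held none of the motifs searched, which says only that these letters are not in those windows.

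Both strands of all windows were searched. CACGTG, which reads the same on both strands, was in 7.26% of 35116 RefSeq promoter windows of this length and in 9 of 50 carrier windows. By gene it was in 3 of the 5 called higher that had a window, namely SLC25A38, SLC25A26 and SLC25A36, in 0 of 7 called lower and in 5 of 25 not called. The shares of all promoters in this paragraph are by window, and a gene can have several. No share by gene over all genes stands beside the counts by gene, and a link of motif to change was not tested. The matches in SLC25A26 lay in 1 of its 3 windows, at 66220751 to 66221050. That window is inside the row of this plus-strand gene, which begins at 66133610. Which start site the cells used was not tested. SLC25A31, too low to be tested for change, also held CACGTG and is left out of the counts by gene. TGATGNAA, the element of C/EBP and ATF factors, was in 3.62% of all windows and in 1 of the carriers' windows, that of SLC25A11. TGACNNNGC, the core of the antioxidant response element, was in 13.3% of all windows and 9 of 50 carrier windows, in 0 of the 5 higher genes and in SLC25A24 among the lower ones. The NRF1 motif was in 5.78% of all windows and in 5 of 50, in 0 of the genes called. TGACGTCA was added to the search after the sequences were seen, and it was in 1.85% of all windows and in 3 of 50, those of SLC25A33, SLC25A36 and SLC25A25. A match describes the sequence only. TGACGTCA and TGACNNNGC share their first 4 letters, but the printed windows hold no match that overlaps another.

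Of 3 ADP/ATP carriers tested, 1 was lower and 1 higher, and the phosphate carrier was not called. Counts in this and the later substrate groups, which are small, stand beside 14.7% of all rows called higher and 17.8% lower. SLC25A4, the ADP/ATP carrier typical of heart and muscle (Entrez 291, chromosome 4, 185143266 to 185150382), stood at 28.1, 27.1 and 27.6 CPM in controls and 21.3, 18.7 and 22.5 CPM after mitocurcumin. All treated libraries lay below all controls, a change of -0.40 ± 0.10 (log2 fold change ± SE, 3 and 3 libraries, edgeR quasi-likelihood test with Benjamini-Hochberg adjustment, adjusted p = 0.00377). SLC25A6 (Entrez 293, chromosome X, 1386152 to 1392113) had 90.8, 83.1 and 72.4 CPM in controls and 93.1, 96.8 and 94.4 CPM after mitocurcumin. The groups did not overlap, though by a small margin, and the rise was 0.21 ± 0.07 (edgeR adjusted p = 0.0394). This call was lost without any of 5 of the 6 libraries, the exception being control replicate 1, with edgeR adjusted p-values up to 0.149 without control replicate 3.

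SLC25A5 (Entrez 292, chromosome X, 119468444 to 119471396) did not pass, at 291, 280.3 and 257 CPM in controls and 274, 281 and 302 CPM after mitocurcumin, with a change of 0.05 ± 0.06. The 2 groups overlapped. Within the summed counts of ADP/ATP carriers, SLC25A4 took 6.86%, 6.93% and 7.73% in controls and 5.49%, 4.71% and 5.37% after mitocurcumin, while SLC25A5 held 71.0% to 72.0% and 70.5% to 72.0%. SLC25A3 was not called either, at 434 ± 20.7 CPM in controls and 448 ± 7.25 CPM after mitocurcumin (SD, n = 3).

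Of the ATP-Mg/phosphate carriers, which adjust the matrix pool of adenine nucleotides in response to calcium, 2 of 3 tested were lower. SLC25A23 (Entrez 79085, chromosome 19, 6440064 to 6459792) had 59.3, 53.9 and 58.9 CPM in controls and 48.0, 50.0 and 45.9 CPM after mitocurcumin, a change of -0.26 ± 0.07. For SLC25A24 (Entrez 29957, chromosome 1, 108134043 to 108200343) the controls had 258, 268 and 278 CPM and the treated libraries 237, 242 and 239 CPM, a change of -0.16 ± 0.05. The treated libraries lay below all controls for both genes, with edgeR adjusted p-values of 0.0103 and 0.022. The call of SLC25A23 was lost without control replicate 3 and without mitocurcumin replicate 3, at edgeR adjusted p = 0.0505 and 0.0635. The call of SLC25A24 was lost in 7 of 15 alternatives, among them the removal of each library but control replicate 1, with edgeR adjusted p-values up to 0.122 without control replicate 3. SLC25A25 (Entrez 114789, chromosome 9, 128068232 to 128109245) was not called, at 20.8, 17.4 and 18.1 CPM in controls and 16.2, 16.5 and 20.7 CPM after mitocurcumin.

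**Figure D3:**
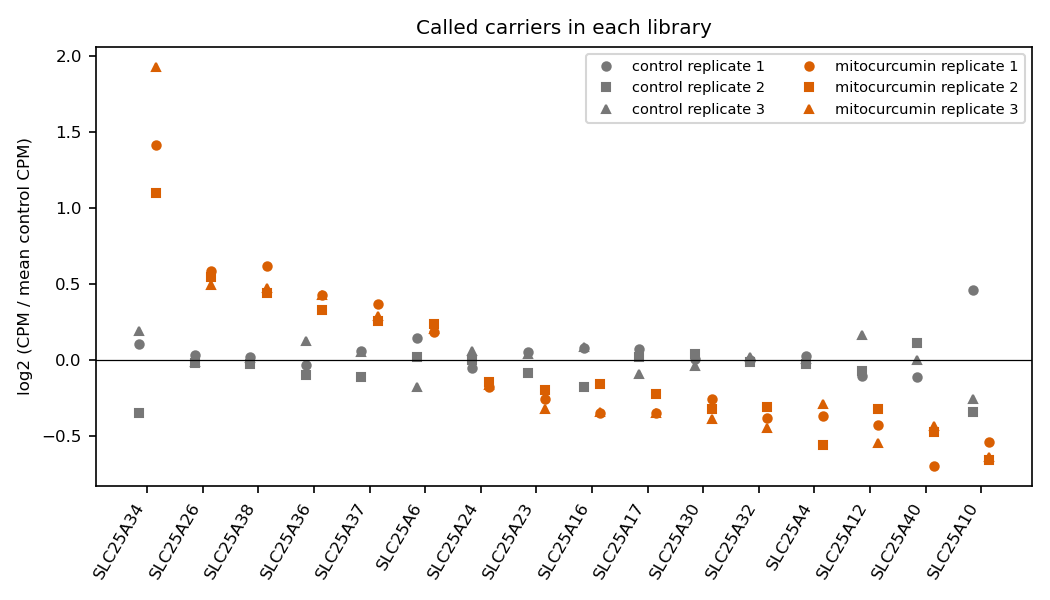
The 16 called carriers in each library, as log2 of the CPM over the mean control CPM, with 1 symbol per replicate. SLC25A34 spreads most among treated libraries, and control replicate 1 stands above the other controls for SLC25A10.

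Among carriers of di- and tricarboxylates, which link the citric acid cycle to the cytosol, 1 of 4 was called. SLC25A10, which exchanges malate or succinate for phosphate (Entrez 1468, chromosome 17, 81712284 to 81721012), had 11.6, 6.65 and 7.04 CPM in controls and 5.78, 5.33 and 5.40 CPM after mitocurcumin. The treated libraries were lower than each control, but control replicate 1 was far above the other controls. The change was -0.61 ± 0.19 (edgeR adjusted p = 0.022), and without control replicate 1 it was -0.31 with an edgeR adjusted p of 0.126. The call was also lost without each of the 3 mitocurcumin libraries.

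SLC25A11, the oxoglutarate/malate carrier of the malate-aspartate shuttle, and SLC25A1, the citrate carrier that feeds lipid synthesis, were not called, at -0.17 ± 0.13 and -0.03 ± 0.16. In both, control replicate 1 was again high: 19.45 CPM against 13.4 and 14.0 for SLC25A11, and 27.3 against 16.6 and 16.6 for SLC25A1. The treated libraries of SLC25A11 (Entrez 8402, chromosome 17, 4937130 to 4940046) had 13.8, 14.2 and 13.6 CPM, within the range of its controls. Without control replicate 1 the change of SLC25A1 was 0.25 with an edgeR adjusted p of 0.0495. SLC25A21, the oxodicarboxylate carrier, was low, at 0.983 ± 0.299 CPM in controls and 0.524 ± 0.144 CPM after mitocurcumin, and was not called (edgeR adjusted p = 0.102). Its antisense row SLC25A21-AS1, which overlaps its start on the opposite strand, had means of 0.833 CPM in controls and 2.06 CPM after mitocurcumin, a rise of 1.29 ± 0.35 (edgeR adjusted p = 0.00881). The counts of SLC25A21-AS1 were low, at 12.0, 36.4 and 13.5 in controls and 50.7, 44.2 and 65.0 after mitocurcumin. Control replicate 2 lay well above the other controls. Whether the counting used strand was not given in the sources used here. Reads where SLC25A21 and SLC25A21-AS1 overlap therefore cannot be assigned with certainty.

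The spread among controls was counted within the family only, and the same counts were not made over all rows. The coefficient of variation among controls was above 20% in 8 members, and control replicate 1 was highest in 7 of the 8. These were SLC25A1, SLC25A10, SLC25A11, SLC25A18, SLC25A21, SLC25A22 and SLC25A39. Over all 43, control replicate 1 was the highest control in 24 members, replicate 3 in 12 and replicate 2 in 7. Without control replicate 1, 2872 rows of the whole table were called higher and 3216 lower, against 2425 and 2938 with all libraries. Whether the high values of this library are particular to carriers was not tested.

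Of 4 carriers of aspartate and glutamate, 1 was called. SLC25A12, the aspartate/glutamate carrier of brain and muscle known as aralar (Entrez 8604, chromosome 2, 171783405 to 171894244), had 30.0, 30.8 and 36.3 CPM in controls and 24.0, 25.9 and 22.1 CPM after mitocurcumin. No treated library reached a control, and the change was -0.43 ± 0.10 (edgeR adjusted p = 0.00293). Its paralog SLC25A13, citrin (Entrez 10165, chromosome 7, 96120220 to 96322098), had 60.1, 61.4 and 61.7 CPM in controls and 55.2, 54.1 and 55.2 CPM after mitocurcumin. These groups did not overlap either, but the change of -0.15 ± 0.06 did not pass (edgeR adjusted p = 0.075). It passed in 1 of 15 alternatives, without control replicate 1, at -0.17 with an edgeR adjusted p of 0.0448. The glutamate carriers SLC25A22 and SLC25A18 were not called, with overlapping groups, and SLC25A18 was at 0.519 CPM in controls.

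Of 6 carriers of glycine, glutathione and other amino acids, 1 rose and 1 fell. SLC25A38, which imports glycine for the first step of heme synthesis (Entrez 54977, chromosome 3, 39383370 to 39397351), had 33.2, 32.3 and 33.1 CPM in controls and 50.4, 44.6 and 45.6 CPM after mitocurcumin. Every treated library was well above the narrow range of controls. The rise was 0.51 ± 0.08, or 1.43-fold, with an edgeR adjusted p of 9.75e-05. Its promoter is the window shown with an E-box close to the start.

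SLC25A40 (Entrez 55972, chromosome 7, 87833568 to 87876360), a carrier that brings glutathione into the matrix, had 31.7, 37.1 and 34.3 CPM in controls and 21.2, 24.8 and 25.4 CPM after mitocurcumin. The groups were well apart, with a change of -0.53 ± 0.10 (edgeR adjusted p = 0.000478). SLC25A39, its paralog with the same substrate (Entrez 51629, chromosome 17, 44319628 to 44324823), had 49.9, 36.9 and 33.9 CPM in controls and 40.0, 40.7 and 33.6 CPM after mitocurcumin, and its groups overlapped (change -0.08 ± 0.13, edgeR adjusted p = 0.683). SLC25A29, a carrier of basic amino acids, SLC25A15, the ornithine carrier, and SLC25A44, a carrier of branched-chain amino acids, were not called, at 0.29 ± 0.15, -0.04 ± 0.10 and -0.12 ± 0.08. SLC25A29 passed in 1 of 15 alternatives, without control replicate 1, at 0.38 with an edgeR adjusted p of 0.0283.

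Of 10 carriers of cofactors and nucleotides, the largest group, 2 were higher and 3 lower, or 50.0% called against 32.5% of all rows. SLC25A26, which imports S-adenosylmethionine, the methyl donor (Entrez 115286, chromosome 3, 66133610 to 66378927), had 11.1, 10.7 and 10.7 CPM in controls and 16.2, 15.8 and 15.2 CPM after mitocurcumin. The libraries of each group lay close together and the groups far apart, a rise of 0.54 ± 0.11 or 1.45-fold (edgeR adjusted p = 0.00098). The gene overlaps the end of LRIG1 on the opposite strand, which was not called, at -0.05 ± 0.05. SLC25A36 (Entrez 55186, chromosome 3, 140941836 to 140980995), a carrier of pyrimidine nucleotides, had 107, 102 and 119.6 CPM in controls and 147, 138 and 147 CPM after mitocurcumin. All treated libraries were above all controls, with a rise of 0.39 ± 0.06 (edgeR adjusted p = 0.00015). SLC25A33, the other pyrimidine nucleotide carrier (Entrez 84275, chromosome 1, 9539465 to 9585173), had 15.5, 17.2 and 17.2 CPM in controls and 18.3, 18.4 and 17.5 CPM after mitocurcumin, and did not pass (0.12 ± 0.10, edgeR adjusted p = 0.404).

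SLC25A32 (Entrez 81034, chromosome 8, 103398638 to 103415107), which serves the matrix supply of FAD and folate, had 89.5, 88.4 and 90.4 CPM in controls and 68.6, 72.0 and 65.5 CPM after mitocurcumin. Controls lay close together and the treated libraries were all below them, with a change of -0.38 ± 0.06 (edgeR adjusted p = 0.000129). SLC25A17, the peroxisomal carrier of cofactors (Entrez 10478, chromosome 22, 40769630 to 40819346), had 30.3, 29.2 and 27.1 CPM in controls and 22.6, 24.6 and 22.7 CPM after mitocurcumin, groups that did not overlap. It changed by -0.31 ± 0.09 (edgeR adjusted p = 0.0149), a call lost without mitocurcumin replicate 1 and without mitocurcumin replicate 3, at edgeR adjusted p = 0.0803 and 0.0667.

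SLC25A16, a carrier linked to coenzyme A (Entrez 8034, chromosome 10, 68477998 to 68527523), had 31.6, 26.4 and 31.7 CPM in controls and 23.4, 26.8 and 23.6 CPM after mitocurcumin. It was the only called member whose groups overlapped, since mitocurcumin replicate 2 was above control replicate 2. Its change of -0.28 ± 0.10 (edgeR adjusted p = 0.0387) was lost in 6 of 15 alternatives. Those that leave out a library were control replicate 1, control replicate 3, mitocurcumin replicate 1 and mitocurcumin replicate 3, at edgeR adjusted p = 0.052, 0.164, 0.166 and 0.145. SLC25A42, the other carrier linked to coenzyme A (Entrez 284439, chromosome 19, 19063994 to 19113030), had 3.18, 2.94 and 2.65 CPM in controls and 2.43, 1.96 and 2.42 CPM after mitocurcumin and was not called (-0.36 ± 0.21).

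SLC25A51, the NAD carrier, had 16.1, 16.2 and 18.9 CPM in controls and 21.7, 21.9 and 18.3 CPM after mitocurcumin. Mitocurcumin replicate 3 lay within the controls, and the change of 0.27 ± 0.11 did not pass (edgeR adjusted p = 0.0712). It passed in 4 of 15 alternatives, among them without mitocurcumin replicate 3 (0.35, edgeR adjusted p = 0.0457) and without control replicate 3 (0.36, edgeR adjusted p = 0.0352). Its close copy SLC25A52 was at 0.603 CPM in controls and 0.640 CPM after mitocurcumin. The pair is similar in sequence, and SLC25A51P1 and SLC25A51P4 were the only 2 of 43 pseudogene rows named after a member that held any count. Reads of these copies may be shared between the rows.

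Of the 2 iron carriers, 1 was called. SLC25A37 (Entrez 51312, chromosome 8, 23528956 to 23575463), mitoferrin-1, had 186, 165 and 185 CPM in controls and 231, 213 and 218 CPM after mitocurcumin. The groups did not overlap and the rise was 0.31 ± 0.06, or 1.24-fold (edgeR adjusted p = 0.000708). SLC25A28, mitoferrin-2 (Entrez 81894, chromosome 10, 99610522 to 99620439), had 17.1, 12.5 and 16.8 CPM in controls and 15.4, 17.8 and 13.4 CPM after mitocurcumin, and the interleaved groups gave a change of 0.00 ± 0.14.

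Of the relatives of the uncoupling proteins, SLC25A30 (Entrez 253512, chromosome 13, 45393316 to 45418373) had 54.7, 55.9 and 53.0 CPM in controls and 45.6, 43.6 and 41.6 CPM after mitocurcumin. The treated libraries were all lower, with a change of -0.32 ± 0.07 (edgeR adjusted p = 0.0021). SLC25A27 and SLC25A14 were not called, at -0.28 ± 0.11 and -0.11 ± 0.13, and SLC25A14 (Entrez 9016, chromosome X, 130339919 to 130373357) had 10.3, 11.4 and 9.04 CPM in controls and 9.90, 9.21 and 9.35 CPM after mitocurcumin. SLC25A20, which exchanges carnitine for acylcarnitines in fatty acid oxidation, had 10.8, 8.16 and 8.79 CPM in controls and 7.16, 7.25 and 6.96 CPM after mitocurcumin. Its groups did not overlap, but the change of -0.38 ± 0.14 missed the threshold (edgeR adjusted p = 0.053). Without control replicate 2 it was -0.45 with an edgeR adjusted p of 0.035. Without control replicate 1, its highest control, it was -0.25 with an edgeR adjusted p of 0.178. The change passed in 2 of 15 alternatives.

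The largest change of the family was in SLC25A34, whose substrate is not settled (Entrez 284723, chromosome 1, 15736258 to 15741392). It held 40, 32 and 41.6 counts in controls and 104, 79.2 and 172.5 counts after mitocurcumin, or 1.70, 1.24 and 1.79 CPM against 4.20, 3.37 and 5.99 CPM. The gene was low in all libraries, and the treated ones were all above the controls but spread widely. The rise was 1.53 ± 0.25, or 2.89-fold (edgeR adjusted p = 0.000168), and it ranged from 1.27 to 1.71 when single libraries were left out. SLC25A34-AS1, on the opposite strand over its end, had 0 counts in controls and 3.01, 1.00 and 3.01 counts after mitocurcumin, at or close to the limit that a count of 0 allows. SLC25A35, its closest relative among the orphans (Entrez 399512, chromosome 17, 8287763 to 8295400), had 5.38, 3.98 and 4.10 CPM in controls and 4.08, 4.77 and 3.95 CPM after mitocurcumin and was not called.

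Among the other orphans, SLC25A45 had 1.19, 1.82 and 1.41 CPM in controls and 3.19, 3.11 and 1.45 CPM after mitocurcumin. Mitocurcumin replicate 3 stayed with the controls, and the change of 0.80 ± 0.31 did not pass (edgeR adjusted p = 0.0591). Without that library it was 1.09 with an edgeR adjusted p of 0.0104, and without control replicate 2 it was 0.99 with an edgeR adjusted p of 0.0393. The change passed in 5 of 15 alternatives. SLC25A53 at -0.45 ± 0.20, SLC25A46, a protein of mitochondrial shape, at -0.08 ± 0.07 and SLC25A43 at 0.05 ± 0.08 were not called. SLC25A46 passed in 1 of 15 alternatives, without control replicate 1, at -0.14 with an edgeR adjusted p of 0.0382. SLC25A53 was at -0.29 without mitocurcumin replicate 1, and its edgeR adjusted p was above 0.05 in each alternative.

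Paralogs with related substrates were then compared within each library, as the log2 ratio of their CPM, where the scaling between libraries drops out. Of 14 pairs in which both genes were tested, the ratios of the 2 groups did not overlap in 7. With 3 libraries against 3, the exact two-sided permutation test cannot go below p = 0.1. Each of these 7 reached that value (0.2 adjusted over the 14 pairs), so none can pass at 0.05. For single genes, the groups did not overlap in 44.9% of all rows tested. No such share was computed for ratios of other gene pairs, and SLC25A5 and SLC25A24 each recur among the pairs. Whether the count of 7 is particular to paralogs was therefore not tested. The largest difference between groups was that of SLC25A34 against SLC25A35, at 1.56 ± 0.36 (difference of means ± SE, n = 3 and 3). SLC25A4 against SLC25A5 gave -0.46 ± 0.09, with control ratios of -3.37, -3.37 and -3.22 and treated ratios of -3.68, -3.91 and -3.75. For SLC25A10 against SLC25A11 the difference was -0.42 ± 0.10, a smaller value than the change of SLC25A10 alone, and without control replicate 1 it was -0.33. Further differences without overlap were those of SLC25A12 against SLC25A13, at -0.27 ± 0.11, SLC25A33 against SLC25A36, at -0.27 ± 0.09, SLC25A14 against SLC25A30, at 0.22 ± 0.08, and SLC25A5 against SLC25A6, at -0.16 ± 0.06.

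In the other 7 pairs the ratios overlapped. For SLC25A28 against SLC25A37 the difference was -0.30 ± 0.16 (exact permutation p = 0.2, n = 3 and 3), and for SLC25A39 against SLC25A40 it was 0.47 ± 0.27 (exact permutation p = 0.2, n = 3 and 3). At 3 libraries against 3, this test can neither show nor deny that SLC25A37 and SLC25A40 differ in response from these paralogs. The ratio of SLC25A51 to SLC25A52 spread from 4.26 to 6.04 among treated libraries, with few counts behind SLC25A52.

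**Figure D4:**
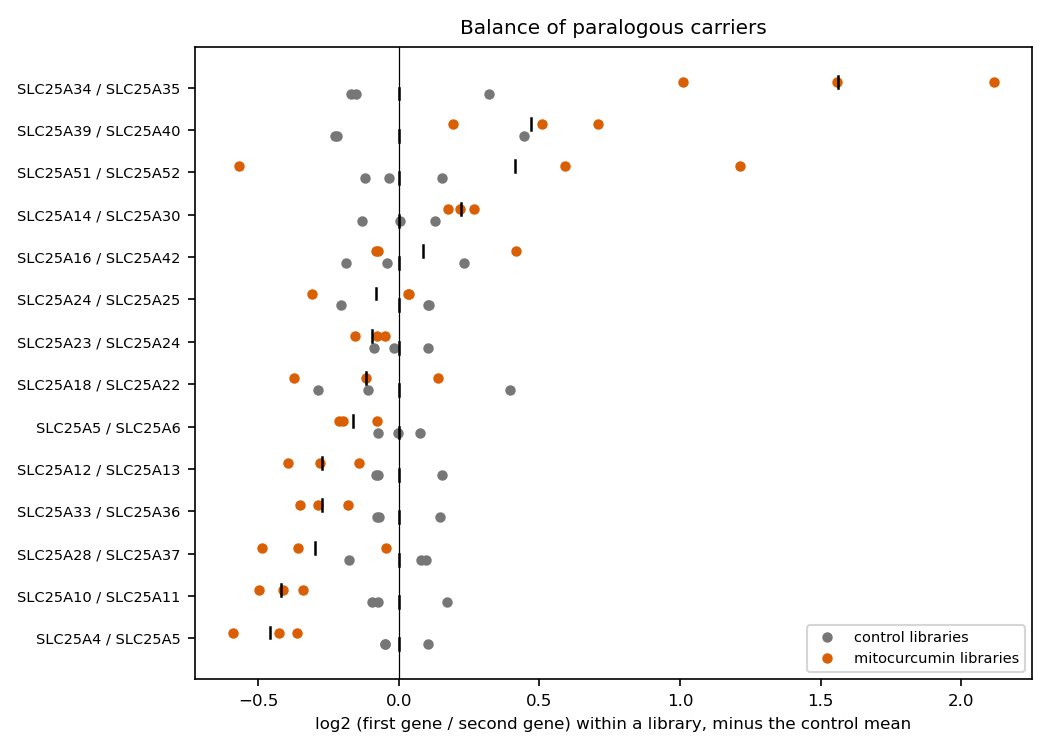
Log2 ratio of the CPM of 2 paralogous carriers within each library, minus the mean control ratio of that pair, for 14 pairs, with a bar at each group mean. The groups lie farthest apart for SLC25A34 against SLC25A35, at 1.56, and those of SLC25A4 against SLC25A5 lie apart by -0.46 with no overlap.

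Carriers that bear other symbols showed no called change. MTCH1 and MTCH2, outer membrane proteins of the family, had 322 and 126 CPM in controls, with log2 fold changes of 0.06 ± 0.06 and 0.00 ± 0.05. UCP2 and UCP3 were not called, at -0.24 ± 0.15 and -0.28 ± 0.29, and UCP1 was too low to be tested. Of 13 genes for carrier import by the TIM22 route, 1 was higher, TIMM9, a chaperone of the intermembrane space, at 0.30 ± 0.07, and 0 were lower. That is 7.69% of the list, against 32.5% of all rows.

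Transporters of the inner membrane from other families had 1 higher and 6 lower of 19, with a median of -0.15. That is 36.8% called, near the 32.5% of all rows. The largest changes were those of SFXN5, of the sideroflexin family, at -0.65 ± 0.14, and LETM1, a cation exchanger, at -0.44 ± 0.07. Of the outer membrane channels through which metabolites reach the carriers, VDAC2 rose by 0.28 ± 0.05, VDAC3 changed by -0.29 ± 0.06 and VDAC1 was not called at 0.01 ± 0.05.

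Enzymes that work with particular carriers were set beside them. In the malate-aspartate shuttle, where SLC25A12, SLC25A13 and SLC25A11 are the carriers, the cytosolic aminotransferase GOT1 had means of 52.2 CPM in controls and 92.0 CPM after mitocurcumin, a rise of 0.82 ± 0.06 (edgeR adjusted p = 6.5e-08), while its mitochondrial counterpart GOT2 changed by -0.19 ± 0.06. The malate dehydrogenases MDH1 and MDH2 were not called. For mitochondrial folate and glycine metabolism, where SLC25A32 and SLC25A38 act, 4 of 5 enzymes rose, against 14.7% of all rows called higher, with MTHFD2 at 1.75 ± 0.06 and SHMT2 at 1.25 ± 0.07, the largest changes of that list. SLC25A38 rose along with them and SLC25A32 fell. ALAS1, which joins glycine to succinyl-CoA to begin heme synthesis, was not called, at 0.19 ± 0.07 (edgeR adjusted p = 0.0556).

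Of 7 genes of iron-sulfur cluster and heme synthesis, which use the iron that the mitoferrins import, LYRM4 rose by 0.43 ± 0.10 and NFS1, the cysteine desulfurase, changed by -0.46 ± 0.10, and 5 were not called. The share called was 28.6%, against 32.5% of all rows. Of 4 carnitine palmitoyltransferases, CPT1A, which makes the acylcarnitines that SLC25A20 carries, changed by -0.25 ± 0.06, and the others were not called. SLC25A25-AS1, an antisense-named RNA whose row does not overlap that of SLC25A25, had means of 6.97 CPM in controls and 12.8 CPM after mitocurcumin, a rise of 0.88 ± 0.18 (edgeR adjusted p = 0.00108), next to SLC25A25 itself at -0.07 ± 0.12.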

How the data were processed

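Polyadenylated RNA was sequenced from 3 control and 3 mitocurcumin libraries with a stranded kit, per the labels' protocols. Per the submitters' processing notes, GRCh38 was used as the build. The file headers name a RefSeq gene model. For the aligner, the counting tool and the use of strand, nothing is given in the sources used here. Raw values, as deposited, were estimated counts: only 20.1% to 21.4% of those above 0 were whole. The deposited log2 values, where above 0, equalled log2 of the raw value over a constant for each library in the rows checked. Rows with low raw values were left out of that check. Columns were matched by treatment word and replicate number, and the heading of mitocurcumin replicate 2 carries a library tag out of sequence with the other 5.

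Counts were rounded and fitted over all rows in R 4.3.3 with edgeR 4.0.16 (quasi-likelihood, robust, TMM, filterByExpr with a minimum count of 10 and total of 15, group as the only term). P-values were two-sided and Benjamini-Hochberg adjusted over 16481 rows, with a threshold of 0.05. Each SE is the fitted coefficient over the square root of F. The common biological coefficient of variation was 8.43%. Alternatives used other scalings and filters, DESeq2 1.42.0, limma 3.58.1 (voom, and the deposited log2 values), a replicate block, protein-coding rows and each library left out. Ratios were tested with scipy 1.17.1.

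The members, substrate groups, pairs and lists were chosen with earlier results of these data known, and no list was tested as a set. Values in each library are given for every called member at a mean of at least 1 CPM and for both genes of a pair with a called member. In each list of partner genes the called genes with the 2 largest changes are named. Genes outside this rule were named after their values were seen. Of the genes tested, 1 carrier counts in the totals but is not reported singly here.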

Additional observations from a re-analysis of the deposited data

How the results depend on the processing

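Over 15 alternatives, 10 of the 16 called carriers kept their call in each: SLC25A4, SLC25A12, SLC25A26, SLC25A30, SLC25A32, SLC25A34, SLC25A36, SLC25A37, SLC25A38 and SLC25A40. The other 6 kept their direction but lost the call in at least 1. With single libraries left out, 5 to 8 members were higher and 5 to 10 lower. Over the whole table the ranges were 1850 to 2872 rows higher and 2165 to 3216 lower. Of 642 combinations of member and alternative, 580 gave the same call and direction, 26 lost a call, 14 gained one in the same direction and 22 changed sign, all of them in members not called. Of the sign changes, 1 also passed the threshold: SLC25A1 without control replicate 1, at 0.25 with an edgeR adjusted p of 0.0495. The cause was not tested. The sign of SLC25A1 turned with upper-quartile scaling (0.000897), voom (0.016), limma on the deposited log2 values (0.0079) and the replicate block (0.0053). The sign of SLC25A52 turned with voom (-0.17), limma on the deposited values (-0.14) and the replicate block (-0.042). With single libraries left out, the log2 change ran from -0.14 to 0.25 for SLC25A1, -0.26 to 0.02 for SLC25A11, -0.10 to 0.0044 for SLC25A15, -0.28 to 0.10 for SLC25A22, -0.20 to 0.0073 for SLC25A25, -0.12 to 0.10 for SLC25A28, -0.15 to 0.077 for SLC25A35, -0.17 to 0.11 for SLC25A39, -0.012 to 0.14 for SLC25A43 and -0.62 to 0.45 for SLC25A52. Among ratios of paralogs, the shift ran from -0.18 to 0.035 for SLC25A24 against SLC25A25, -0.26 to 0.081 for SLC25A18 against SLC25A22 and -0.078 to 0.20 for SLC25A16 against SLC25A42. Ratios from the deposited log2 values, an alternative chosen after seeing the data, turned no direction.

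The replicate numbers were checked for pairing. Deviations of same-numbered libraries from their group means correlated at 0.101, 0.017 and -0.0101, and those of differently numbered libraries at -0.109 to 0.0909. At this number of libraries, these values can neither show nor deny a pairing. With the replicate block, 7 members were higher and 11 lower. The added calls were SLC25A45 and SLC25A20. Counts limit SLC25A18, SLC25A21, SLC25A34, SLC25A45 and SLC25A52 most, and 5 members were too low to be tested.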
